A study of Mus musculus with 6 samples.

Results

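The genes described here are the 4 MiT-TFE transcription factors, Tfec, Mitf, Tfe3 and Tfeb, and the 3 genes of the folliculin complex, Flcn, Fnip1 and Fnip2, which together made 7 of the 17710 genes in any of the deposited tables. They were picked by symbol and were chosen on the basis of earlier results for XEN against ES cells in these same libraries, so their levels in both cell types are given as a description with no test. The study compared total RNA of mouse embryonic stem (ES) cells and extraembryonic endoderm (XEN) cells, with 3 libraries of each, named A, B and C, under normal conditions and without feeder cells. The ES cells, of strain 129/Ola, grew on 0.1% gelatin in N2B27-2iLIF, a serum-free medium with kinase inhibitors and the cytokine LIF. The XEN cells, which stand for the primitive endoderm lineage and were of strain ICR, grew in RPMI1640 with 15% FBS, Glut and BME. Strain, medium and cell type changed together between the groups and cannot be told apart. Whether libraries A, B and C were separate cultures is not in the labels, and a p-value then measures only the spread between libraries, which may be technical.

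The MiT-TFE factors are basic helix-loop-helix leucine zipper proteins that bind E-box sequences as homodimers or as heterodimers with one another, and they are best known for switching on genes of lysosomes and autophagy. When nutrients are plentiful, Rag GTPases recruit Tfe3 and Tfeb to the lysosome, where the kinase mTORC1 phosphorylates them and so keeps them in the cytoplasm. Folliculin, bound to Fnip1 or Fnip2, is a GTPase-activating protein for RagC and RagD and is needed for that step. In mouse ES cells the folliculin complex is known for its control of Tfe3 at the exit from pluripotency, in which Esrrb is a Tfe3 target. Mitf is best known from melanocytes and Tfec from macrophages and osteoclasts.

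Promoter sequence is shown for the member with the largest difference between the cell types, Tfec, and for Fnip1, the only member with the palindromic E-box CACGTG in the windows searched. The promoters of Lamp1, which encodes an abundant lysosomal membrane protein, and of Rragb, a Rag GTPase gene, are shown beside them as a target and a regulator of the family that hold several copies. All sequences are from RefSeq on GRCm38.p6, a later build than that of the deposited tables, and are printed from 5′ to 3′ on the strand of the gene. Tfec is the stretch chr6:16898442-16898691 on the minus strand, which holds 250 bases before the annotated start, with GATAA in capitals, the core motif that GATA factors bind. Fnip1 is chr11:54438029-54438178, Lamp1 is chr8:13159011-13159160 and Rragb is chrX:153139808-153139960, all on the plus strand and all beginning 150 bases before the start, with CACGTG in capitals. The Rragb stretch runs to 3 bases after the start because its last copy spans it.
Tfec: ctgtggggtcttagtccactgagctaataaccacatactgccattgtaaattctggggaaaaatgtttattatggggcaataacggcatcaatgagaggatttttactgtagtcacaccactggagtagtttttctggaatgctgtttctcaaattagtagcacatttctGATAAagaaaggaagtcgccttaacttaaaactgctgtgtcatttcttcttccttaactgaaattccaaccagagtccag
Fnip1: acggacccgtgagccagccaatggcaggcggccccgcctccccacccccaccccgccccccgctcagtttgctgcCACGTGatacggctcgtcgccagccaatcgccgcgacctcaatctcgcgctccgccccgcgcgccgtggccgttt
Lamp1: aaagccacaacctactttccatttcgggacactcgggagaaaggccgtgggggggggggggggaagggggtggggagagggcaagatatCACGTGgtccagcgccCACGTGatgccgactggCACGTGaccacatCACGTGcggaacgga
Rragb: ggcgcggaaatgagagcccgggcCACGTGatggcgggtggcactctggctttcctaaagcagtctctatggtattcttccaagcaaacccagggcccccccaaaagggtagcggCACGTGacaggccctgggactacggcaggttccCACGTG

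All 7 members had at least 1 RefSeq promoter window of 300 bases, from 250 before to 50 after an annotated start, and the members had 12 windows in all. Mitf and Tfeb had 3 windows each, Tfe3 had 2 and the other members had 1 each. CACGTG, which reads the same on both strands, was in 1 of the 12 windows, that of Fnip1, 75 bases before the start. It was in 7.15% of all 32851 RefSeq promoter windows. The related E-box CATGTG, searched on both strands, was in 0 of the 12 windows and in 14.2% of all windows. GATAA, searched on both strands, was in 5 of the 12 windows and in 25.4% of all windows. It lay 80 bases before the start in Tfec and 36 and 12 bases before the start in windows of Mitf. Windows of Tfe3 held it too, so among the members the match was not particular to Tfec. Whether it bears on the level of any member was not tested. These are matches of letters in a window and no binding was measured.

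The libraries held 20675311 to 22375875 expected counts. The labelled cell types carried their markers. The summed level of 5 ES markers, among them Pou5f1 and Nanog, was 3288 to 3348 CPM in ES and 1.93 to 1.99 CPM in XEN libraries, and that of 6 XEN markers, among them Gata4 and Gata6, was 4.66 to 5.39 CPM in ES and 4959.6 to 5274 CPM in XEN libraries. CPM are counts scaled to the library total and by TMM factors for composition, and FPKM are the authors' values scaled to transcript length and depth. Of 13581 genes tested by edgeR's quasi-likelihood test, 42.0% were called higher and 46.7% lower in XEN cells at an adjusted p of 0.05, so a call in either direction was common. The median log2 fold change of all tested genes was -0.07.

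Tfec was all but undetected in ES cells and was the most abundant MiT-TFE factor per length in XEN cells. Its expected counts were 1 in ES library A and 0 in ES libraries B and C, against 3186, 3047 and 2787 in XEN libraries A, B and C. Its FPKM were 0.03 in ES library A, not listed in the other ES libraries, and 99.83, 95.41 and 92.50 in the XEN libraries. The XEN libraries lay far above every ES library and differed little among themselves. In CPM the means were 0.0154 ± 0.0266 (SD, n = 3) in ES and 143 ± 5.8 (SD, n = 3) in XEN cells. With 1 count in ES and 9020 in XEN libraries, the ratio of summed counts was 9705, with an exact Clopper-Pearson 95% interval from 1741 to 383361 that covers counting error only. Without ES library A, which holds the only ES count, the ratio was at least 2197 against 3 counts over the group, and without ES library B or C it was 6399.5 and 6370. In these bulk libraries, more cells that express a gene and more RNA of it per cell cannot be told apart. The mean FPKM of Tfec in XEN cells was higher than that of 93.6% of the tested genes.

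Mitf went the other way. Its FPKM were 19.77, 20.56 and 20.33 in ES libraries A, B and C and 2.43, 2.26 and 2.52 in XEN libraries A, B and C. The XEN libraries formed a tight group well below the ES libraries, and every library still held at least 237 expected counts. In CPM it was 88.2 ± 1.85 (SD, n = 3) in ES and 11.9 ± 0.747 (SD, n = 3) in XEN cells, which is 7.39-fold lower, with a log2 fold change of -2.89 ± 0.06 (SE). The size of that log2 fold change exceeded that of 79.5% of the tested genes.

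Tfe3, the factor that the folliculin complex holds in check in ES cells, was the most abundant of the 7 genes per length in ES cells and stayed abundant in XEN cells. Its FPKM were 61.44, 60.44 and 62.06 in ES libraries and 51.94, 49.06 and 48.69 in XEN libraries A, B and C. The groups did not overlap, but the gap was small beside the level. In CPM it was 174 ± 2.66 (SD, n = 3) in ES and 157 ± 5.68 (SD, n = 3) in XEN cells, and the log2 fold change was -0.15 ± 0.03 (SE). Only 10.4% of the tested genes had a smaller log2 fold change in size.

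Tfeb, best known as the regulator of lysosome biogenesis, was also modestly lower in XEN cells. Its FPKM were 24.04, 23.77 and 24.23 in ES libraries and 17.23, 18.22 and 17.01 in XEN libraries A, B and C, with no overlap. In CPM it was 51.7 ± 0.626 (SD, n = 3) in ES and 41.2 ± 1.37 (SD, n = 3) in XEN cells, and the log2 fold change was -0.33 ± 0.03 (SE).

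Flcn, which encodes folliculin, was slightly higher in XEN cells. Its FPKM were 19.24, 19.66 and 20.17 in ES libraries and 21.33, 21.04 and 21.25 in XEN libraries A, B and C. The groups did not overlap, though the highest ES library and the lowest XEN library were less than 1 FPKM apart. In CPM it was 59.97 ± 1.34 (SD, n = 3) in ES and 70.6 ± 0.421 (SD, n = 3) in XEN cells, and the log2 fold change was 0.23 ± 0.02 (SE).

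The genes of its partners, Fnip1 and Fnip2, which bind folliculin and act with it on the Rag GTPases, differed from each other. Fnip1 had FPKM of 13.07, 13.00 and 13.34 in ES libraries and 12.71, 11.55 and 11.39 in XEN libraries A, B and C. Its CPM overlapped between the groups, at 77.6 ± 1.25 (SD, n = 3) in ES and 76.9 ± 4.87 (SD, n = 3) in XEN cells, with a log2 fold change of -0.01 ± 0.05 (SE) that turned to 0.01 without XEN library B and to 0.02 without XEN library C. Fnip2 had FPKM of 19.87, 18.80 and 20.34 in ES libraries and 11.09, 10.10 and 9.86 in XEN libraries A, B and C, with all XEN libraries far below. In CPM Fnip2 was 138 ± 5.08 (SD, n = 3) in ES and 77.6 ± 5.42 (SD, n = 3) in XEN cells, which is 1.77-fold lower, with a log2 fold change of -0.83 ± 0.07 (SE). Fnip2 was the only member whose expected counts were not whole numbers, in all 6 libraries, so a part of its reads was shared out between genes by the authors' estimate.

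All 7 members passed the filter on low counts, Tfec through its XEN libraries alone. In CPM, 2 of the 7, Tfec and Flcn, had every XEN library above every ES library, against 42.4% of the tested genes, and 4 of the 7, Mitf, Tfe3, Tfeb and Fnip2, had every XEN library below, against 47.0% of the tested genes. Because the members were chosen on this contrast, nothing is read from those counts. In FPKM, which is not scaled for composition, Fnip1 did not overlap either and lay lower in XEN cells. The median log2(FPKM + 1) difference of all tested genes was -0.154.

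**Figure D1:**
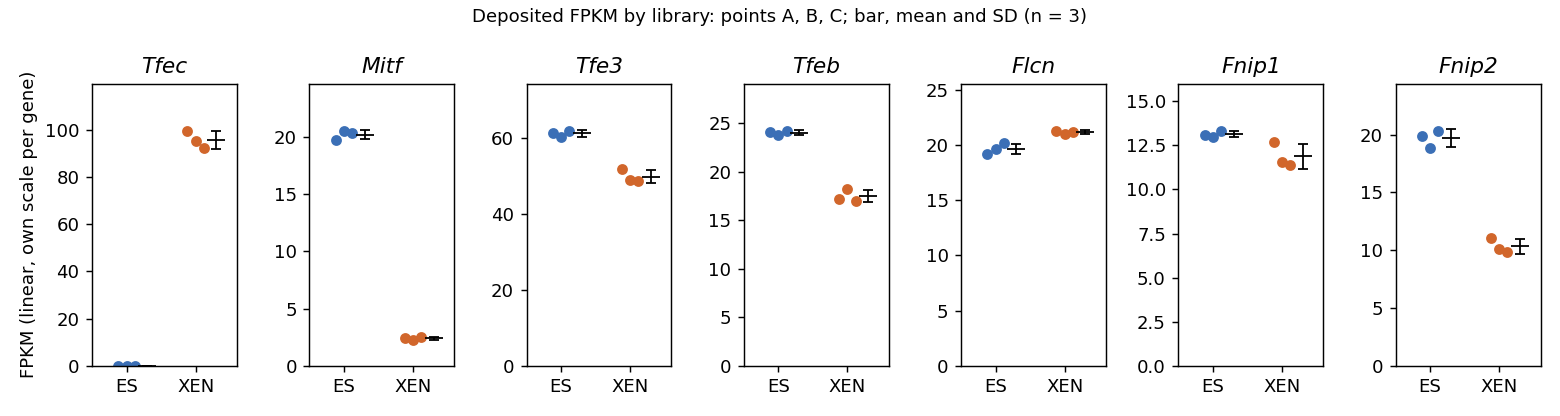
Deposited FPKM of the 7 genes (linear y axes from 0, a scale of its own for each gene) in ES libraries (blue) and XEN libraries (orange) A, B and C, with the mean and SD of each group as black bars. Tfec goes from at most 0.03 to at least 92.50 FPKM and Mitf from about 20.2 to 2.40 FPKM, while the other 5 genes differ by less than 2-fold.

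Ordered per length in ES cells, Tfe3 came first at 61.3 ± 0.817 FPKM (SD, n = 3), followed by Tfeb at 24.0 ± 0.231 FPKM. Mitf at 20.2 ± 0.406, Fnip2 at 19.7 ± 0.789 and Flcn at 19.7 ± 0.466 FPKM overlapped in their libraries and could not be ordered. Fnip1 lay below them at 13.1 ± 0.18 FPKM, and Tfec was last. In XEN cells the order was Tfec at 95.9 ± 3.69, Tfe3 at 49.9 ± 1.78, Flcn at 21.2 ± 0.15, Tfeb at 17.5 ± 0.645, Fnip1 at 11.9 ± 0.72, Fnip2 at 10.3 ± 0.652 and Mitf at 2.40 ± 0.132 FPKM, and no neighbours overlapped. Mitf thus went from the level of Flcn and Fnip2 in ES cells to the bottom of the order in XEN cells.

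The make-up of the MiT-TFE family differed more than its total. The 4 factors summed to 106 ± 0.96 FPKM (SD, n = 3) in ES and 166 ± 5.4 FPKM (SD, n = 3) in XEN cells. Without Tfec, the other 3 summed to 69.8 ± 1.7 FPKM in XEN cells, below the ES level. Tfe3 made up 58.1% ± 0.35 of the summed FPKM in ES cells, Tfeb 22.7% ± 0.076, Mitf 19.2% ± 0.43 and Tfec 0.0095% ± 0.016 (SD, n = 3). In XEN cells Tfec made up 57.9% ± 0.34, Tfe3 30.1% ± 0.32, Tfeb 10.6% ± 0.5 and Mitf 1.45% ± 0.1 (SD, n = 3). The ratio of Tfec to Tfe3 in XEN cells was 1.92, 1.94 and 1.90 in libraries A, B and C. By share of expected counts, which favours longer transcripts, Tfe3 led Tfec in XEN cells, at 44.4% against 40.5%, so the lead of Tfec holds per length only.

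Among the 3 factors present in both cell types, Tfe3 carried more of the sum in XEN cells. Leaving Tfec out, its share was 58.1% ± 0.36 in ES and 71.5% ± 1.0 in XEN cells, that of Tfeb 22.8% ± 0.08 and 25.1% ± 1.1, and that of Mitf 19.2% ± 0.43 and 3.45% ± 0.23 (SD, n = 3). The ratio of Tfe3 to Mitf was 3.11, 2.94 and 3.05 in ES and 21.4, 21.7 and 19.3 in XEN libraries A, B and C. That of Tfe3 to Tfeb differed far less, at 2.55 ± 0.0095 in ES and 2.86 ± 0.16 in XEN cells (SD, n = 3).

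The Fnip pair changed places. Fnip2 made up 59.9% ± 0.72 of the summed Fnip1 and Fnip2 FPKM in ES and 46.5% ± 0.13 in XEN cells (SD, n = 3), and Fnip1 the rest. By expected counts the shares of Fnip2 were 63.9% and 50.2%, so the change of the leading partner in XEN cells depended on the length. The sum of both was 32.8 ± 0.95 FPKM in ES and 22.2 ± 1.4 FPKM in XEN cells. With Flcn slightly higher, the ratio of Flcn to the sum of its partners was 0.584, 0.618 and 0.599 in ES and 0.896, 0.972 and 1.0 in XEN libraries A, B and C. The groups were well apart in that ratio. The summed MiT-TFE FPKM was 5.36 ± 0.097 times that of Flcn in ES and 7.81 ± 0.24 times in XEN cells (SD, n = 3). Without Tfec it was 3.29 ± 0.074 times that of Flcn in XEN cells.

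**Figure D2:**
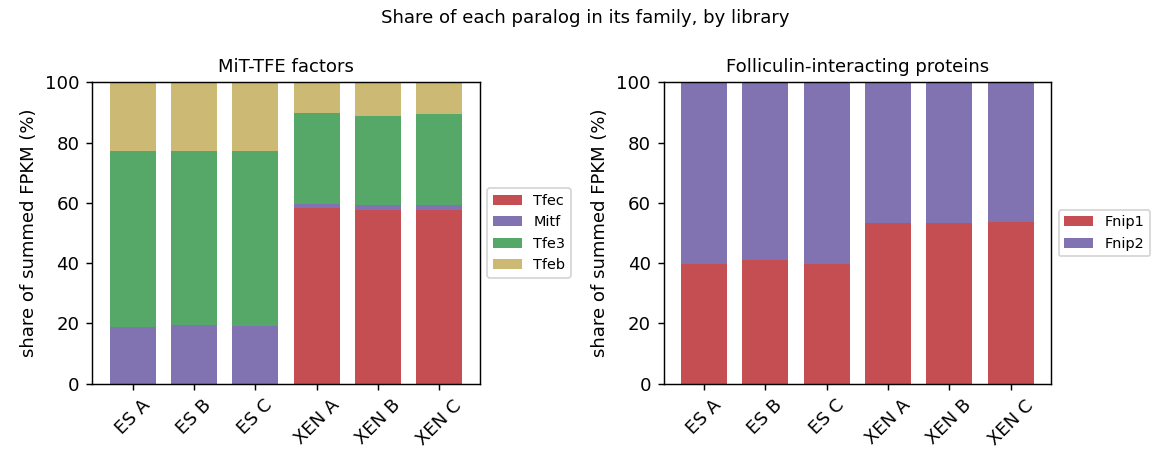
Share of each paralog (y axis, % of summed FPKM) in each of the 6 libraries (x axis) for the 4 MiT-TFE factors (left) and for Fnip1 and Fnip2 (right). Tfec takes 57.6% to 58.2% of the family in XEN libraries and at most 0.0285% in ES libraries, and Fnip1 passes Fnip2 in all 3 XEN libraries.

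The tables also give a mean transcript length per gene and library, which shifts when the estimated mix of transcripts shifts. Tfec had 2 transcript models, 1 from RefSeq and 1 added by the authors, and its length was 1535 bases wherever it was listed. Mitf, which has alternative first exons, had 9 models, 3 of them from RefSeq, and its length was 4659.50 to 4668.39 bases in ES and 4786.14 to 4836.85 bases in XEN libraries. The Mitf mix in XEN libraries was 145 bases longer on average, or 3.12%. Of 6245 named tested genes with several transcripts that were listed in all libraries, 84.5% had a smaller difference. Tfe3 was longer in XEN libraries too, at 3064.45 to 3079 bases in ES and 3105.11 to 3119.46 bases in XEN libraries. Fnip2 was shorter, at 7395.01 to 7458.91 bases in ES and 7207.66 to 7287.15 bases in XEN libraries. Tfeb and Flcn overlapped between the groups, and Fnip1 had a single model of 6281 bases. Length ranges did not overlap for 39.4% of those 6245 genes, a set from which genes of constant length were not removed. They did not overlap for 3 of the 5 members in that set, a number too small to set against that share. The tables hold no values per transcript, so which models made the difference was not tested.

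**Figure D3:**
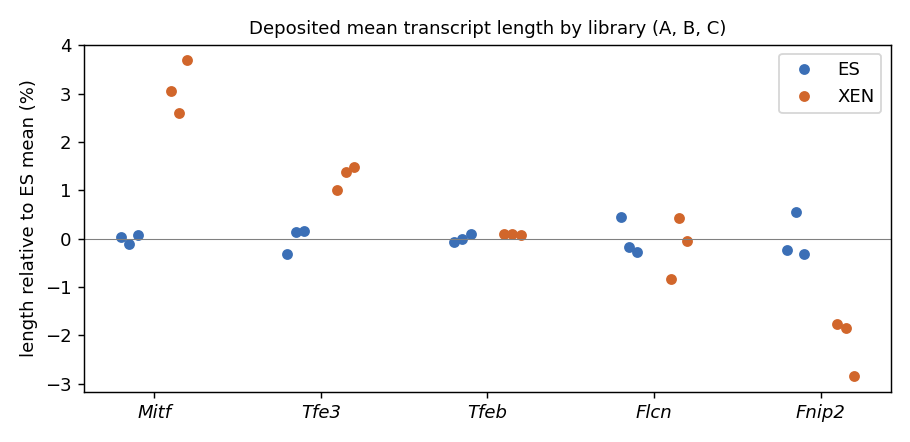
Deposited mean transcript length of 5 members in ES libraries (blue) and XEN libraries (orange) A, B and C, as % difference from the ES mean of the gene (y axis). XEN libraries lie above ES libraries for Mitf (mean 3.12%) and Tfe3 (1.29%), below for Fnip2 (-2.15%), and overlap with them for Tfeb and Flcn.

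By Euclidean distance of log2 CPM over the 6 libraries, the genes most like Tfec were Lbp at 0.883, Enpep at 0.981 and Egflam at 1.10. They too were all but undetected in ES cells, with XEN means of 172, 211 and 106 CPM. The genes most like Mitf were Helb at 0.315, Baz2b at 0.365 and Pald1 at 0.432, with ES means of 91.5, 79.7 and 100.5 CPM and XEN means of 13.2, 11.6 and 13.0 CPM. Those most like Tfe3 were Eif3g, Ctcf and Rfc1, at distances of 0.110 to 0.118, those most like Tfeb were Nif3l1, Rrp15 and Nol7, at 0.0641 to 0.124, and those most like Flcn were Ext2, Atl2 and Klf16, at 0.0894 to 0.113. The small distances of the last 3 sets go with small differences between the groups, which many genes share.

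The genes that place the factors at the lysosome were tested in the fit over all genes, and the lists were written with earlier results of these libraries known. Of 10 genes of the Rag GTPases, the Ragulator and Slc38a9, 5 rose and 5 fell. Both counts are near the shares of all tested genes, 42.0% higher and 46.7% lower, and the median log2 fold change was 0.08 against -0.07. The Rag GTPases work as pairs of RagA or RagB with RagC or RagD, and on both sides of the pair 1 paralog was far lower in XEN cells. Rragb was 79.7, 74.6 and 75.3 CPM in ES and 7.14, 6.39 and 6.26 CPM in XEN libraries A, B and C, with a log2 fold change of -3.52 ± 0.07 (SE; edgeR adjusted p = 1.22e-21). Rragd was 84.3, 90.6 and 91.2 CPM in ES and 8.51, 8.72 and 7.99 CPM in XEN libraries, with a log2 fold change of -3.38 ± 0.05 (SE; edgeR adjusted p = 6.09e-22). Rragc, the other folliculin substrate, rose from 79.3 ± 2.09 to 117 ± 2.91 CPM (SD, n = 3), and Rraga fell from 69.5 ± 2.95 to 56.3 ± 3.63 CPM (SD, n = 3). Slc38a9, the lysosomal arginine sensor, rose by a log2 fold change of 0.56, and Lamtor1, the membrane anchor of the Ragulator and the gene of the list with the highest FPKM over all 6 libraries, by 0.43.

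Upstream of the Rag GTPases, 7 of 18 genes of GATOR, KICSTOR and the amino acid sensors rose, 7 fell and 4 were not called, which is near the 42.0% and 46.7% of all tested genes. The median log2 fold change was -0.06 against -0.07. Sec13, a GATOR2 subunit that also serves the COPII coat and the nuclear pore, rose from 70.2 ± 2.38 to 225 ± 9.48 CPM (SD, n = 3). The arginine sensor gene Castor1 and its paralog Castor2 went in opposite directions. Castor1 fell from 35.9 ± 2.02 to 6.10 ± 0.44 CPM, and Castor2 rose from 2.64 ± 0.444 to 16.3 ± 0.115 CPM (SD, n = 3). The leucine sensor gene Sesn1 fell from 17.1 ± 1.15 to 10.5 ± 0.419 CPM (SD, n = 3).

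Of 26 genes of mTORC1, TSC, AMPK and other enzymes that add or remove phosphate on Tfeb or signal to it, 15 rose, 9 fell and 2, Rheb and Mcoln1, were not called, against 42.0% higher and 46.7% lower among all tested genes. The median log2 fold change was 0.23 against -0.07, and whether the list differs from other genes was not tested. Akt1, a kinase of Tfeb, rose from 26.2 ± 0.774 to 144 ± 4.15 CPM, and Prkaa2, an AMPK catalytic subunit gene, from 41.5 ± 1.02 to 206 ± 16.9 CPM (SD, n = 3). Deptor, an inhibitor of mTOR, fell from 35.2 ± 0.511 to 2.42 ± 0.286 CPM, and Prkag2, an AMPK regulatory subunit gene, from 26.3 ± 1.61 to 10.9 ± 1.22 CPM (SD, n = 3). Ppp2ca, a phosphatase subunit gene and the member with the highest FPKM, rose from 305 ± 3.55 to 382 ± 4.15 CPM (SD, n = 3).

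The C9orf72-SMCR8 complex is related to folliculin and its partners in structure, and GABARAP proteins bind the folliculin complex. Of these 6 genes 2 rose, Gabarap from 142 ± 6.54 to 223 ± 4.73 CPM and Gabarapl2 from 52.3 ± 1.53 to 57.0 ± 0.767 CPM (SD, n = 3). C9orf72 fell from 18.5 ± 1.51 to 15.9 ± 1.4 CPM and Wdr41 from 24.2 ± 2.06 to 19.3 ± 1.42 CPM (SD, n = 3). Smcr8 and Gabarapl1 were not called. Among all tested genes 42.0% were higher and 46.7% lower. The median log2 fold change of the list was -0.06 against -0.07. The number of genes called depended on the scaling: with upper-quartile factors 1 gene was higher and 4 were lower. Without ES library B 1 was higher and 1 lower, and without XEN library A 1 was lower.

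**Figure D4:**
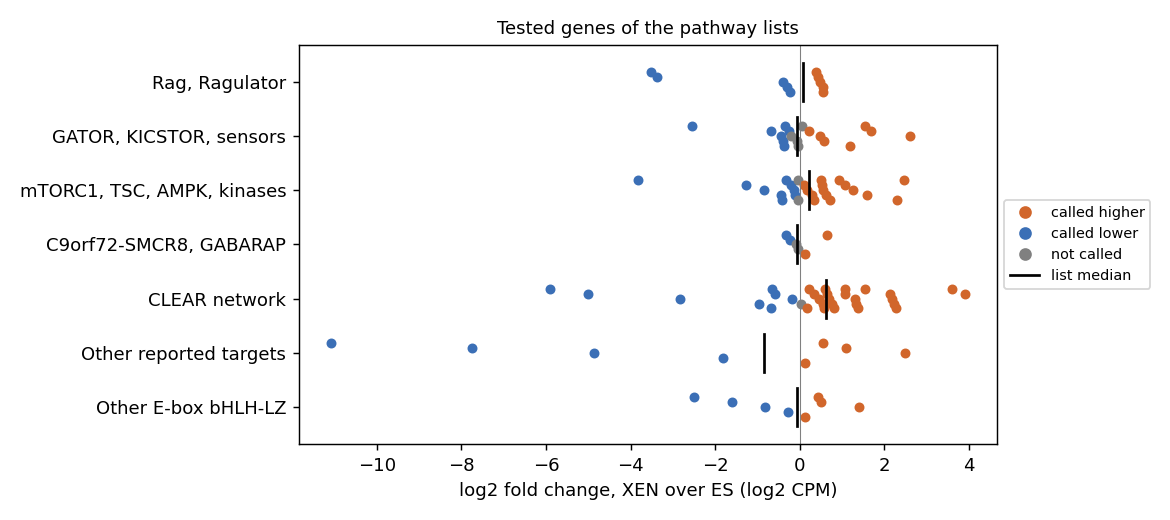
Log2 fold change of XEN over ES (x axis, log2 CPM) of each tested gene in the 7 pathway lists (y axis), coloured by its call, with the list median as a black bar. The CLEAR network has 23 of 32 genes higher with a median of 0.62, and the other lists have medians from -0.85 to 0.23.

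Downstream, most lysosomal and autophagy genes of the CLEAR network, the set known for control by Tfeb and Tfe3, were higher in XEN cells. Of its 33 genes 32 could be tested, and 23 rose, 8 fell and 1 was not called, against 42.0% and 46.7% of all tested genes, with a median log2 fold change of 0.62 against -0.07. Atp6v0d2, a proton pump subunit gene, had 2 counts over the ES libraries, 0 over the XEN libraries, and was under the filter. Naglu, a heparan sulfate hydrolase gene, rose from 2.02 ± 0.35 to 31.7 ± 3.85 CPM, and Ctsf, a cysteine protease gene, from 3.35 ± 0.22 to 41.8 ± 2.27 CPM (SD, n = 3). Lamp1, the most abundant by FPKM, was 583, 580 and 610.1 CPM in ES and 1517, 1528 and 1533 CPM in XEN libraries A, B and C, a log2 fold change of 1.37 ± 0.02 (SE; edgeR adjusted p = 1.66e-18).

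The 2 largest changes of the network, those of Gusb and Hexa, were among the 8 genes that fell. Hexa, the alpha subunit gene of beta-hexosaminidase, fell from 139.7 ± 4.31 to 4.29 ± 0.199 CPM, and Gusb, the beta-glucuronidase gene, from 16.6 ± 0.823 to 0.190 ± 0.0421 CPM (SD, n = 3). Others that fell were Lamp2, Scpep1, Vps11 and the autophagy genes Sqstm1 and Map1lc3b, with log2 fold changes from -0.97 to -0.19, and these were named after their values were seen.

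Of the 24 CLEAR genes with a RefSeq promoter window, 11 held CACGTG, against 8.09% of all genes with a window. CACGTG is the core of the element that defines the network, so the higher share is no finding of these data. Of these 11, 10 rose, 0 fell and 1, Pip4p1, was not called, with a median log2 fold change of 1.08. Of the 13 without it, 7 rose and 6 fell, and the median was 0.18. Lamp1 held 4 copies, 61, 45, 28 and 15 bases before its start, as in the sequence above. Over all tested genes with a window, 42.2% of 1243 genes with CACGTG and 43.5% of 9094 without it rose, which are close to each other, and that difference was not tested. The split of the CLEAR list was noticed after its values were seen and was not tested. In the Rag and Ragulator list 4 of 9 genes held CACGTG, and 2 of them rose and 2 fell, among them Rragb, whose copies begin 127, 36 and 3 bases before its start.

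**Figure D5:**
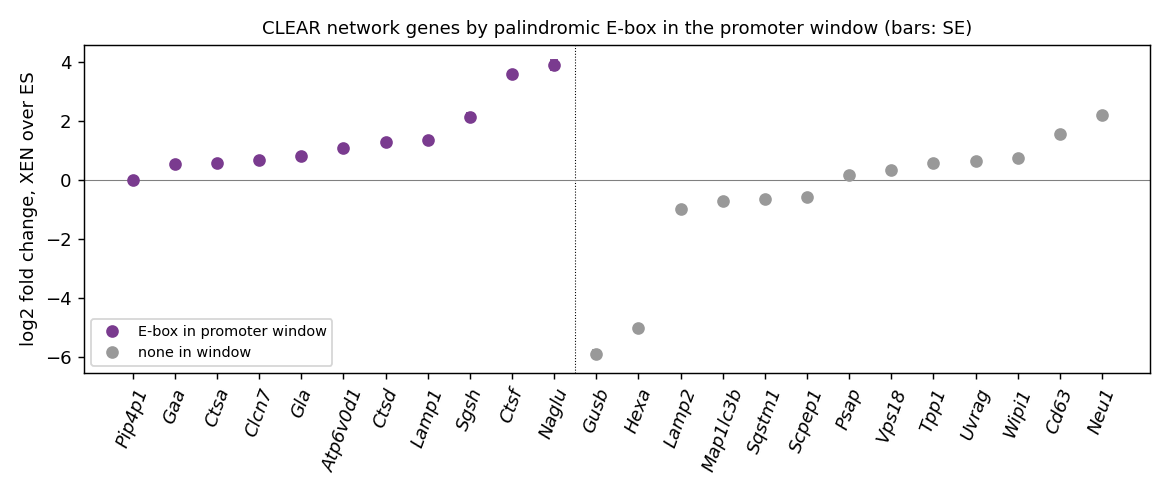
Log2 fold change of XEN over ES (y axis, with SE, most bars smaller than the points) of the 24 CLEAR genes with a RefSeq promoter window, split by whether the window holds the palindromic E-box (purple, left) or not (grey, right). The left set runs from 0.02 to 3.92 and the right set from -5.90 to 2.22.

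Of 10 other reported targets of Tfe3, Tfeb or Mitf, 8 could be tested, and 4 rose and 4 fell. The counts are near the 42.0% and 46.7% of all tested genes, and the median log2 fold change was -0.85 against -0.07. Esrrb, the pluripotency factor gene downstream of Tfe3 in ES cells, fell from 987 ± 18.4 to 0.368 ± 0.114 CPM (SD, n = 3). The small difference in Tfe3 RNA is described above. Tfe3 protein, its place in the cell and its activity were not measured, and a link to Esrrb was not tested. Gpnmb, a lysosomal glycoprotein gene, had 1758 counts in ES and 2 in XEN libraries, a ratio of ES over XEN of 817 with an exact Clopper-Pearson 95% interval from 226 to 6751. Irs2, an insulin signalling adaptor gene, rose from 7.0 ± 0.236 to 15.0 ± 0.727 CPM, and Hif1a from 178 ± 3.3 to 259 ± 8.2 CPM (SD, n = 3). Ppargc1a was under the filter, and Bcl2a1a was in no table used here.

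Of 8 other E-box factors of the same structural class 4 were higher and 4 lower, near the 42.0% and 46.7% of all tested genes, and their median log2 fold change was -0.07, as it was over all tested genes. Usf1 fell from 57.8 ± 1.77 to 32.6 ± 1.42 CPM and Tfap4 from 38.5 ± 1.43 to 12.6 ± 1.41 CPM (SD, n = 3). Mlxip rose from 24.9 ± 0.718 to 66.3 ± 2.52 CPM, Mlx, its partner, from 40.2 ± 2.67 to 56.6 ± 0.774 CPM, and Srebf2, the cholesterol regulator with the highest FPKM of the list, fell from 248 ± 7.9 to 206 ± 6.56 CPM (SD, n = 3).

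Markers of the cells best known for Mitf and Tfec were measured beside them. Of 10 melanocyte markers 4 could be tested, and 1 rose and 3 fell, against 42.0% higher and 46.7% lower among all tested genes. So few genes cannot be set against those shares. The summed level of the list was 398 to 414 CPM in ES and 273 to 312 CPM in XEN libraries. Most of the ES sum was Kit, which rose from 209 ± 4.73 to 289 ± 19.9 CPM, and Trpm1, which fell from 171 ± 1.96 to 0.0798 ± 0.0286 CPM (SD, n = 3). Pmel, a melanosome gene and Mitf target, fell from 22.6 ± 1.23 to 3.04 ± 0.222 CPM (SD, n = 3). Tyrp1 was in no table, Tyr had 21 counts in all in ES against 25 in XEN libraries, Dct had 0 counts in all in ES against 1 in XEN libraries, and Sox10 had 3 against 0. Mlana, another melanosome gene, had 111 counts in all in ES against 0 in XEN cells and was called lower, so Trpm1, Pmel and Mlana were detected in ES cells while Tyrp1, Dct and Sox10 were at or near 0 in both groups.

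Of 10 osteoclast and macrophage markers 3 could be tested, and 2 rose and 1 fell. That is again too few to set against the 42.0% higher and 46.7% lower of all tested genes. The summed level of the list was 22.0 to 24.4 CPM in ES and 41.0 to 43.3 CPM in XEN libraries. Acp5, an acid phosphatase gene, rose from 1.93 ± 0.429 to 30.6 ± 0.857 CPM, and Cd68 fell from 19.8 ± 1.05 to 2.02 ± 0.317 CPM (SD, n = 3). Csf1r, the receptor gene of the macrophage growth factor, had 3 counts in ES and 579 in XEN libraries. Ptprc and Adgre1 were in no table. Itgam had 41 counts in all in ES against 0 in XEN libraries, and Calcr had 9 against 0. In the same order Tnfrsf11a had 8 against 1, Oscar 8 against 5 and Ctsk 3 against 6. The part of other cell types in the levels of Mitf and Tfec was not tested.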

How the data were processed

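The authors' deposited tables, 1 per library, gave expected counts per gene, FPKM and a mean transcript length in bases. Bowtie2, RSEM, DESeq2 and the build mm9 are named in the submitters' processing notes, with no versions or roles. Per the file headers and rows, gene models were RefSeq transcripts plus transcripts the authors added. The deposited FPKM values start at 0.01, and genes not listed in a table were set to 0. Strandedness is not given in the sources used here.

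Expected counts were rounded, filtered by filterByExpr (13581 genes left) and scaled by TMM, with factors of 0.951 to 1.05. The test was the edgeR 4.0.16 quasi-likelihood F test (R 4.3.3) on group alone, with Benjamini-Hochberg adjustment at 0.05, and was checked on simulated data first. Log2 fold changes are differences of mean log2 CPM with a prior count of 2. Their SE comes from the spread in both groups. Total counts of 20675311 to 22375875 put 3 counts at 0.134 to 0.145 CPM. Libraries of a group differed by more than sampling noise (chi-square over its degrees of freedom 2.51 to 7.52). Intervals cover counting error only.

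The members and all gene lists were chosen with earlier results of these data known. Named genes were the 7 members; of each pathway list, up to 2 called genes with the largest change in each direction whose mean reached 5 CPM, and the gene with the highest FPKM; and the 3 genes nearest to each of 5 members. Rraga, genes that were not called or not tested, and some marker genes were named outside this rule. Kics2, Castor1, Castor2, C9orf72 and Pip4p1 stand in the tables under older symbols. Single values of some list genes are not reported here. Alternatives were other scaling factors and filters, a replicate block, leaving out each library, DESeq2 1.42.0, limma 3.58.1 on log2(FPKM + 1), log2(FPKM + 0.1), and shares of counts.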

Additional observations from a re-analysis of the deposited data

How the results depend on the processing

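With upper-quartile or no composition factors the median log2 fold change of all tested genes shifted by -0.146 and -0.133, and the members moved with it. In that order the log2 fold changes were -3.03 and -3.02 for Mitf, -0.30 and -0.28 for Tfe3, -0.47 and -0.46 for Tfeb, 0.09 and 0.10 for Flcn, -0.16 and -0.15 for Fnip1, and -0.97 and -0.96 for Fnip2. On log2(FPKM + 1) and log2(FPKM + 0.1) they were -2.64 and -3.02 for Mitf, -0.29 and -0.30 for Tfe3, -0.44 and -0.46 for Tfeb, 0.10 and 0.11 for Flcn, and -0.14 and -0.15 for Fnip1. No member changed direction under these settings. Leaving out a library gave Fnip1 values from -0.06 to 0.02, so its direction is not fixed, while Mitf stayed within -2.92 and -2.83, Tfe3 within -0.18 and -0.13, Tfeb within -0.35 and -0.31, Flcn within 0.22 and 0.24 and Fnip2 within -0.88 and -0.79. The ratio of Tfec ran from 2197, a bound, to 9885 and rests on a depth of 1 ES count, and no fold of Tfec was formed from FPKM or by DESeq2, since it was listed in only 1 ES library.

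By expected counts the ES shares were 28.1% for Mitf, 55.5% for Tfe3 and 16.5% for Tfeb, and the XEN shares 40.5% for Tfec, 3.36% for Mitf, 44.4% for Tfe3 and 11.7% for Tfeb. Those of Fnip1 were 36.1% and 49.8%, those of Fnip2 63.9% and 50.2%, and the ratio of Flcn to its partners 0.279 and 0.458, in ES and XEN cells. Counts over the deposited length gave 22.5% for Tfeb in ES, and 57.0% for Tfec and 30.8% for Tfe3 in XEN cells. Without single libraries the ES share of Tfeb was 22.7% to 22.8%.

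For the C9orf72-SMCR8 and GABARAP list 1 gene was higher with upper-quartile or no composition factors, DESeq2 and limma on FPKM, and 4 were lower with upper-quartile or no composition factors and limma. Leaving out a library gave 1 to 2 higher and 1 to 3 lower. The cause was not tested. The counts of the other 6 pathway lists stayed within 1.5 times under every alternative run. Same-lettered libraries did not deviate together (correlations 0.01 to 0.03), so no pairing by letter was seen. What the letters stand for is not in the labels, and these values cannot show how the libraries were prepared or run. With the letter as a replicate block 5682 genes were higher and 6318 lower, and 11960 of these 12000 were also called without the block. No pathway list count moved. The values of the members do not use the block, so they could not move. The marker lists were counted in the main setting alone.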
